A study of Mus musculus with 14 samples.

Results

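The comparison took hearts that lacked Irx3 on both alleles and asked which genes differed when the last copy of Irx5 was also lost. Both groups were Irx3-/- by their titles, so the Irx5 genotype was the variable. Irx3-/-;Irx5-/- hearts (double mutants, 4 arrays) were compared with Irx3-/-;Irx5+/- hearts (4 arrays), which is 8 of the 14 arrays of the series. The other 6 arrays were Irx5-/- hearts (3 arrays) and Irx5+/- hearts (3 arrays), whose labels name no Irx3 mutation, and they served to set the same Irx5 loss beside Irx3. All were hearts of E12.5 mouse embryos, measured on Affymetrix Mouse Gene 1.0 ST arrays. The groups were read from the sample titles, and all 21776 probe sets with exactly 1 gene symbol were followed, as 19931 genes with 1 probe set each. The labels do not say how the mutant alleles were made or whether each array holds a separate embryo. The p-values therefore cover only the variation among these arrays, which may be technical. The array titled Irx3-/-;Irx5+/- replicate 4 carries a description that names Irx5-/-. It was kept by its title and its genotype label, which read alike, and the main results are repeated without it.

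Irx3 and Irx5 are neighbouring genes that encode homeodomain transcription factors of the Iroquois family, which mostly act as repressors or activators of tissue patterning genes. In the heart, Irx3 is best known for its role in the ventricular conduction system, and Irx5 for the gradient of potassium current across the ventricular wall. At mid-gestation the growing heart consists of dividing cardiomyocytes, an inner endocardium, cushions that will form valves, and an outer epicardium. Dividing cells build the mitotic machinery late in the cell cycle. Promoters of its genes often carry a CHR element (TTTGAA), read by the MuvB complex with B-Myb, together with CCAAT boxes bound by NF-Y.

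Genes of the mitotic machinery were higher as a group in double mutants, and the promoters of 3 of them are shown because they hold both elements. Each window covers 250 bases before the annotated start and 15 after it, 5′ to 3′ on the strand of the gene, from RefSeq (GRCm38.p6). Capitals mark the matches to TTTGAA and to CCAAT on either strand (TTCAAA and ATTGG on the reverse strand).
Ccnb2 (cyclin B2, chr9:70421540-70421804, minus strand): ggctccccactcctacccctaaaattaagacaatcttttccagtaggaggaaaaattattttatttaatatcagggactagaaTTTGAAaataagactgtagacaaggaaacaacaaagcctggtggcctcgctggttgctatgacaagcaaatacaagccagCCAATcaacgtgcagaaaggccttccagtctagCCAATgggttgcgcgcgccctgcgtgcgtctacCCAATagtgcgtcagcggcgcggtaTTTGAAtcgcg
Prc1 (central spindle crosslinker, chr7:80294201-80294465, plus strand): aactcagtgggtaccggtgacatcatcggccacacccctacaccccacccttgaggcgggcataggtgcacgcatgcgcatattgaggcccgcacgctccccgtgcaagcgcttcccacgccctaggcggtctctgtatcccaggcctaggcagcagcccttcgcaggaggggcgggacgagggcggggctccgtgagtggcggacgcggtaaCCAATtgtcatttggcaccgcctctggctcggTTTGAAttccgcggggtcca
Top2a (DNA topoisomerase II alpha, chr11:99024175-99024439, minus strand): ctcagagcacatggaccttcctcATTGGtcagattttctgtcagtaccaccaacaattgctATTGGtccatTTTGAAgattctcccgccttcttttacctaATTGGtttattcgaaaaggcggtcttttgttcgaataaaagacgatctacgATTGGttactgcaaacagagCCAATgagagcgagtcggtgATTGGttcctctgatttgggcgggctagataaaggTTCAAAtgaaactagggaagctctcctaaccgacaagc

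The Ccnb2 window held CCAAT at 87, 54 and 21 bases before the start, and TTTGAA at 167 bases before it and just after it. In Prc1, CCAAT began 37 bases and TTTGAA 5 bases before the start. Top2a held 6 CCAAT matches and 2 TTTGAA matches, and no pair of matches shared a base in these 3 windows. RefSeq promoters were available for 75 of the 93 measured genes in the 5 mitotic lists described further on. TTTGAA occurred in 49 of those 75 windows of 300 bases (65.3%), against 15.2% of the 15610 promoters of all genes tested. CCAAT occurred in 49 (65.3%) against 38.2%, and both motifs in 38 (50.7%) against 6.12%. An Iroquois-type palindrome, ACANNTGT, was in 0 of the 75 and in 5.71% of all promoters. Not every leading gene followed this pattern. The window of Tacc3 held neither TTTGAA nor CCAAT, and that of Ndc80 held no CCAAT and TTTGAA only after the start. Within the mitotic lists, the median log2 difference was 0.43 for the 49 genes with TTTGAA and 0.38 for the 26 without. Across all genes both medians were -0.02. These matches describe letters in the windows and say nothing of binding.

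All values are log2 signals, on which a difference of 1 is a factor of 2. The medians of the 8 arrays ran from 7.89 to 7.99, and correlations between them from 0.962 to 0.986. Heart markers were high on all 8 arrays, with Actc1 (cardiac actin) at 13.52 to 13.77 and Tnnt2 (cardiac troponin T) at 13.42 to 13.69. Both groups held 3 female samples and 1 male sample by Xist and Y-linked genes.

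The Iroquois genes themselves were followed first. Irx5 read 8.31, 8.21, 8.21 and 8.31 in Irx3-/-;Irx5+/- hearts and 8.20, 8.43, 7.52 and 8.04 in double mutants. The groups overlapped, because replicate 2 of the double mutants was the highest of the 8 arrays and replicate 3 the lowest, and the difference was -0.21 ± 0.16 (SE, adjusted p = 0.751 in limma). It was -0.039 without replicate 3 of the double mutants and -0.34 without replicate 2. Irx3, which is mutated in both groups, read 7.87, 7.89, 7.93 and 8.17 against 7.86, 7.69, 7.75 and 7.60. Its double mutant arrays all lay below the others, at -0.24 ± 0.09, and it did not pass (adjusted p = 0.597 in limma). The 8.17, the highest of the 8, was read on the array of conflicting description. Without that array the Irx3 difference was -0.17 ± 0.09. The labels do not say which parts of these genes the alleles remove, and a probe set that lies elsewhere in the gene is no check of the genotype. Irx4, a ventricular family member, lay at 0.47 ± 0.30, Irx6 at -0.27 ± 0.13, Irx1 at 0.16 ± 0.12 and Irx2 at 0.00 ± 0.12, and none of these passed.

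Across all 19931 genes, 1 gene passed at an adjusted p under 0.05 (0.00502%), and it was lower in double mutants. An unadjusted p under 0.05 was reached by 1528 genes (7.67%), of which 809 were higher in double mutants (4.06%) and 719 lower (3.61%). The 4 arrays of both groups did not overlap for 526 genes that were higher (2.64%) and 434 that were lower (2.18%). Of all genes, 44.5% had a difference above 0 and 55.5% below 0, with a median of -0.02. Counts for gene groups are read beside these shares. Unless a gene is said to have passed, its difference is a value that did not reach the adjusted threshold.

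Hmcn1, which encodes hemicentin 1, a very large extracellular matrix protein of basement membrane attachments, fell when the last Irx5 copy was lost without Irx3. Its signal was 12.55, 12.49, 12.70 and 12.67 in Irx3-/-;Irx5+/- hearts and 12.05, 11.93, 11.79 and 12.02 in double mutants. Every double mutant array lay below every Irx3-/-;Irx5+/- array, and the difference was -0.65 ± 0.08 (SE, adjusted p = 0.0478 in limma), a fold of 1.57. The array design holds 77 probe sets annotated to Hmcn1, of which the one tested had the highest mean. All 77 lay below 0, from -1.30 to -0.26 with a median of -0.81, where 54.7% of all probe sets lay below 0. The groups did not overlap for 47 of the 77, against 2.32% of all 21776 probe sets. When every probe set was tested singly in limma, 5 passed (0.023% of all), and these 5 were all of Hmcn1. Probe sets of 1 gene on the same arrays share their RNA and are not independent.

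Averaged over the 77 probe sets, the arrays of Irx3-/-;Irx5+/- hearts stood at 10.71, 10.54, 11.13 and 11.09, and those of double mutants at 9.95, 10.23, 10.05 and 9.91. The replicate with the conflicting description, at 11.09, was among the higher arrays of its titled group. Where Irx3 was present, the same averages were 10.74, 11.10 and 11.13 in Irx5+/- hearts and 10.80, 10.42 and 10.67 in Irx5-/- hearts, which overlapped. There the tested probe set lay at -0.30 ± 0.10 and did not pass, and 73 of the 77 probe sets lay below 0, with a median of -0.33. The test of whether the 2 differences were unequal gave -0.36 for Hmcn1 and missed the threshold (adjusted p = 1.00 in limma). The call of Hmcn1 was lost in 13 of 17 alternative settings, with adjusted p from 0.00451 to 0.353 in limma over all 17. Among the losses were the fit of only the 8 compared arrays (0.326), centred medians (0.106), a sex term (0.102), a sarcomere term (0.0696) and a block on replicate number (0.221). The call was also lost with any of the 8 arrays left out (0.0690 to 0.353 in limma). The difference lay between -0.69 and -0.60 in every setting, but some, such as the fit of only the 8 compared arrays, cannot change it. Without Irx3-/-;Irx5+/- replicate 4 it was -0.63 with an adjusted p of 0.353 in limma.

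**Figure D1:**
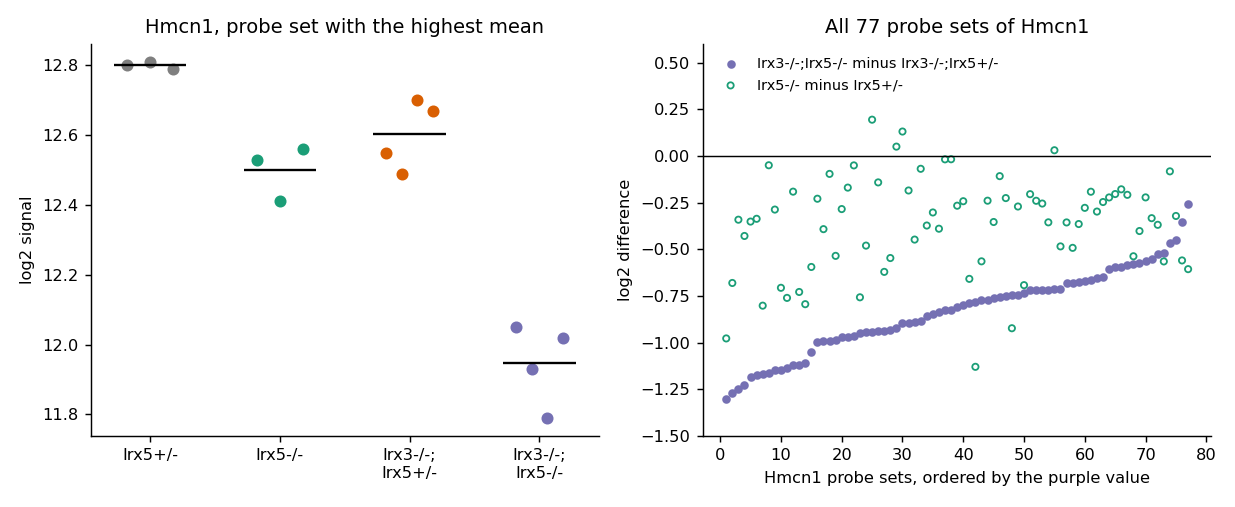
Left, log2 signal of the tested Hmcn1 probe set on each of the 14 arrays (points) by genotype, with group means as lines. The 4 double mutants sit between 11.79 and 12.05, below all other arrays. Right, log2 difference of each of the 77 Hmcn1 probe sets on loss of the last Irx5 copy without Irx3 (filled, all below 0) and with Irx3 present (open, 73 below 0).

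The 15 genes per direction with the smallest unadjusted p were named next. Predicted and unnamed genes, olfactory and vomeronasal receptors, pseudogenes and small RNAs were left out of this choice. Of the 15 higher in double mutants, all had groups that did not overlap, and 6 belonged to the mitotic lists. Of the 15 lower, 14 did not overlap. Apart from Hmcn1 their adjusted p ran from 0.261 to 0.389 in limma, so none of the other 29 passed. The choice by smallest p fixes that these genes look separated, and nothing is drawn from that. In hearts with Irx3, 27 of the 30 had a difference of the same sign, beside 65.9% of all genes.

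Mcm8, a helicase of meiotic and repair replication, led the named higher genes. It read 7.95, 8.15, 7.85 and 7.86 in Irx3-/-;Irx5+/- hearts and 8.54, 8.73, 8.92 and 9.28 in double mutants, a difference of 0.92 ± 0.15. Replicate 4 of the double mutants was the highest, and the groups lay apart. Nup107, a scaffold nucleoporin, read 9.63, 9.45, 9.65 and 9.60 against 10.07, 10.24, 10.05 and 10.19 (0.55 ± 0.10). The widest difference among the 15 was that of Spa17, a sperm surface protein also found in ciliated cells. Its arrays read 7.23, 6.45, 7.71 and 8.07 against 8.66, 8.71, 9.22 and 8.82 (1.49 ± 0.31), with replicate 2 of Irx3-/-;Irx5+/- hearts well below the rest. H3c15, a histone H3 gene, lay at 1.35 ± 0.26, and its near-identical copies can share probe signal. Pgbd1, a domesticated transposase gene, lay at 0.67 ± 0.13, and Cenpq, a centromere protein, at 0.85 ± 0.17.

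Among the lower genes after Hmcn1 stood Pcdhb20, a clustered protocadherin of cell adhesion. It read 7.69, 8.17, 8.15 and 8.23 against 7.46, 7.15, 6.89 and 7.28 in double mutants (-0.86 ± 0.16), and neighbouring protocadherin genes of similar sequence can share its signal. Maoa, the amine-degrading monoamine oxidase A, read 9.17, 9.29, 9.71 and 9.27 against 8.26, 8.68, 8.10 and 8.84 (-0.89 ± 0.20). The groups lay apart, although the double mutants spread over a wider range. Mfap5, a glycoprotein of microfibrils, read 9.07, 9.5, 9.57 and 9.51 against 8.59, 8.75, 8.30 and 8.25 (-0.94 ± 0.22). Smoc1, a secreted calcium-binding matrix protein that antagonises BMP signals, lay at -0.91 ± 0.22. Plagl1, an imprinted zinc-finger factor, was narrowly spread, at 12.28, 12.28, 12.46 and 12.38 against 12.09, 12.09, 11.92 and 11.84 (-0.36 ± 0.09). Ctsh, a lysosomal cysteine protease, was the exception whose groups overlapped, at -0.93 ± 0.22. Ptpre, Dnajc5b, Get4 and Mtmr10 lay between -0.77 and -0.38.

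Genes that drive mitosis were higher as a group in double mutants, although no single member passed. Over 5 lists that follow mitosis from entry to cell separation, 90 of 93 measured genes had a difference above 0, with a median of 0.41, beside 44.5% and -0.02 over all genes. An unadjusted p under 0.05 was reached by 51 higher members (54.8%) and 0 lower ones, beside 4.06% and 3.61% of all genes. For 31 members (33.3%, against 2.64%) every double mutant array lay above every Irx3-/-;Irx5+/- array. These genes vary together from sample to sample, so their number is not a number of independent observations, and the lists were chosen with earlier results of these data known. In whole hearts, fewer cells of a type and less RNA per cell cannot be told apart, and this holds for every gene group here.

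The regulators of mitotic entry had a median of 0.33, with 17 of 19 above 0 and 7 higher members at an unadjusted p under 0.05. Ccnb2, the cyclin B2 whose promoter is printed above, read 11.10, 11.06, 10.63 and 10.94 in Irx3-/-;Irx5+/- hearts and 11.52, 11.47, 11.68 and 11.78 in double mutants. The gap between the groups was wide beside the spread within them (0.68 ± 0.15). Aurkb, the Aurora kinase of the chromosomal passenger complex, read 9.41, 9.11, 9.36 and 9.22 against 9.57, 9.69, 9.54 and 9.92 (0.40 ± 0.14). Mastl, the Greatwall kinase that restrains the phosphatase opposing mitotic entry, lay at 0.58 ± 0.17, and Melk, a kinase of proliferating cells, at 0.60 ± 0.22. The 2 members below 0 were Aurka, the Aurora kinase of spindle poles, and Foxm1, a transcription factor of mitotic genes, both at -0.02 and named after their values were seen.

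Kinetochores tie chromosomes to the spindle, and the checkpoint holds the cell until all are attached. This list had the highest median of all 42, at 0.45, with all 24 members above 0, 16 of them at an unadjusted p under 0.05 and 8 with groups that did not overlap. Ndc80, the outer kinetochore protein that grips microtubules, read 9.56, 9.72, 9.42 and 9.56 against 9.95, 10.05, 9.99 and 10.32 (0.52 ± 0.10). Cenpe, a kinetochore motor, read 9.69, 9.55, 9.49 and 9.48 against 9.86, 10.06, 10.05 and 10.24 (0.50 ± 0.11). Both genes had tight groups with no overlap. Bub1, a checkpoint kinase, lay at 0.45 ± 0.11, and Cenpf, a large kinetochore protein of late cell cycle, at 0.61 ± 0.15.

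The spindle list of motors and centrosome proteins had a median of 0.42 with all 19 members above 0. Tacc3, which stabilises spindle microtubules, read 10.14, 10.26, 9.86 and 10.27 against 10.60, 10.63, 10.65 and 10.86 (0.55 ± 0.10). Tpx2, the activator of Aurora A on the spindle, read 9.98, 9.80, 9.60 and 9.63 against 10.26, 10.21, 10.23 and 10.37 (0.51 ± 0.11). The double mutant arrays were close together for both genes. Kif22, a chromosome-arm kinesin, lay at 0.50 ± 0.11, and Aspm, a spindle pole protein, at 0.46 ± 0.11.

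Genes of cytokinesis, the final cleavage, had a median of 0.43 with all 14 above 0 and 11 at an unadjusted p under 0.05. Prc1, which bundles the central spindle, read 9.31, 9.07, 9.17 and 9.0 against 9.43, 10.02, 10.11 and 10.20. Replicate 1 of the double mutants was only just above the highest Irx3-/-;Irx5+/- array, and the difference was 0.80 ± 0.17. Anln, the actin-binding anillin of the cleavage furrow, lay at 0.61 ± 0.18. Ect2, the exchange factor that switches on RhoA at the furrow, lay at 0.48 ± 0.15 with groups that overlapped. Kif20b, a kinesin of the midbody, lay at 0.43 ± 0.11.

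Condensation and cohesion genes had a lower median of 0.24, with 16 of 17 above 0. Top2a, the topoisomerase that untangles sister chromatids, read 11.11, 11.09, 10.80 and 11.03 against 11.42, 11.58, 11.49 and 11.59 (0.51 ± 0.10), and its groups lay apart. Mki67, which encodes the proliferation antigen Ki-67, read 10.05, 10.04, 10.16 and 10.02 against 10.43, 10.43, 10.40 and 10.73 (0.43 ± 0.12). The condensin subunits Ncapg and Smc2 lay at 0.46 ± 0.12 and 0.40 ± 0.12. The anaphase promoting complex, whose core subunits are present through the whole cycle, had a median of 0.08. Its member with the smallest p, the mitotic ubiquitin-conjugating enzyme Ube2c, lay at 0.48 ± 0.16, while the core subunits Cdc27, Anapc2 and Anapc1 lay at 0.14, 0.18 and 0.12.

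**Figure D2:**
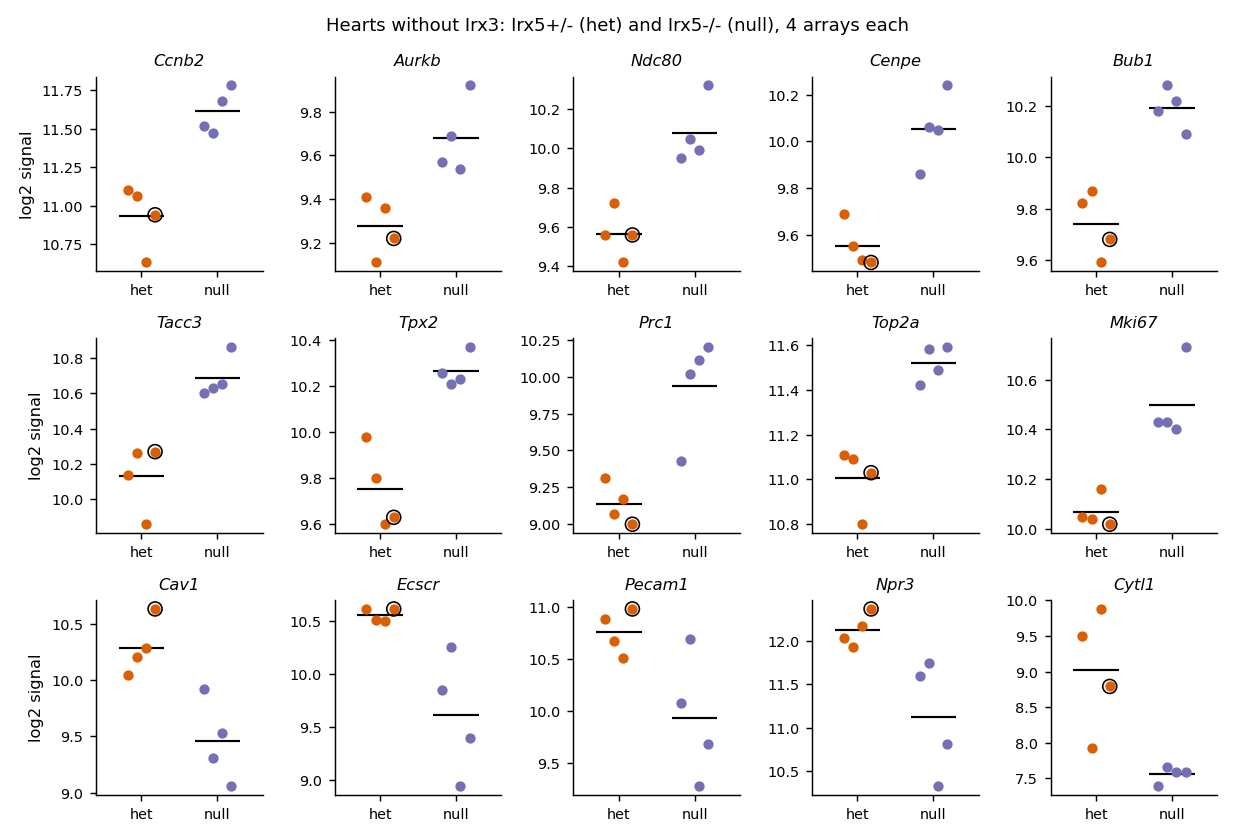
Log2 signal on each of the 4 Irx3-/-;Irx5+/- arrays (het) and 4 Irx3-/-;Irx5-/- arrays (null) for 10 mitotic genes and 5 endothelial or caveolar genes, with group means as lines and the array of conflicting description circled. The groups do not overlap in the panels, except for Pecam1, whose double mutants reach from 9.28 to 10.69.

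The mean of each list on each array, relative to its mean over all 14, shows how the samples line up. For the kinetochore list the Irx3-/-;Irx5+/- arrays stood at -0.14, -0.14, -0.31 and -0.16, and the double mutants at 0.13, 0.26, 0.30 and 0.36. The Irx5+/- arrays stood at -0.18, -0.17 and -0.22, and the Irx5-/- arrays at 0.02, 0.18 and 0.08. Every array with an Irx5 copy lay below 0 on this list, which had the highest median of the 42, and every array without one above it. The cytokinesis and condensation lists split the arrays in the same way. The mitotic entry list did not, with Irx5-/- replicate 1 at -0.05, nor did the spindle list, with Irx5+/- replicate 3 at 0.04. The array of conflicting description, at -0.16, lay with its titled group on the kinetochore list. Over the 93 mitotic genes it was below all 4 double mutant arrays for 64 genes and above all 4 for 1. No such count was made beside the Irx5-/- arrays. These lists are no check of its genotype.

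With that array left out, the mitotic median was 0.39, 45 members were higher at an unadjusted p under 0.05 (against 3.78% of all genes), and 35 had groups that did not overlap (against 4.25%). Over all 8 choices of an array to leave out, the median ran from 0.35 to 0.45. Other cell contents also varied across these arrays, and the sarcomere means of the groups overlapped. The sarcomere list stood at 0.39, 0.07, -0.40 and 0.23 on Irx3-/-;Irx5+/- arrays and 0.16, 0.26, 0.62 and 0.44 on double mutant arrays. With the sarcomere mean as a term in the fit, the median of each mitotic list kept its sign, and the median over the 93 genes was 0.37. The part of muscle content in the mitotic result was not tested.

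**Figure D3:**
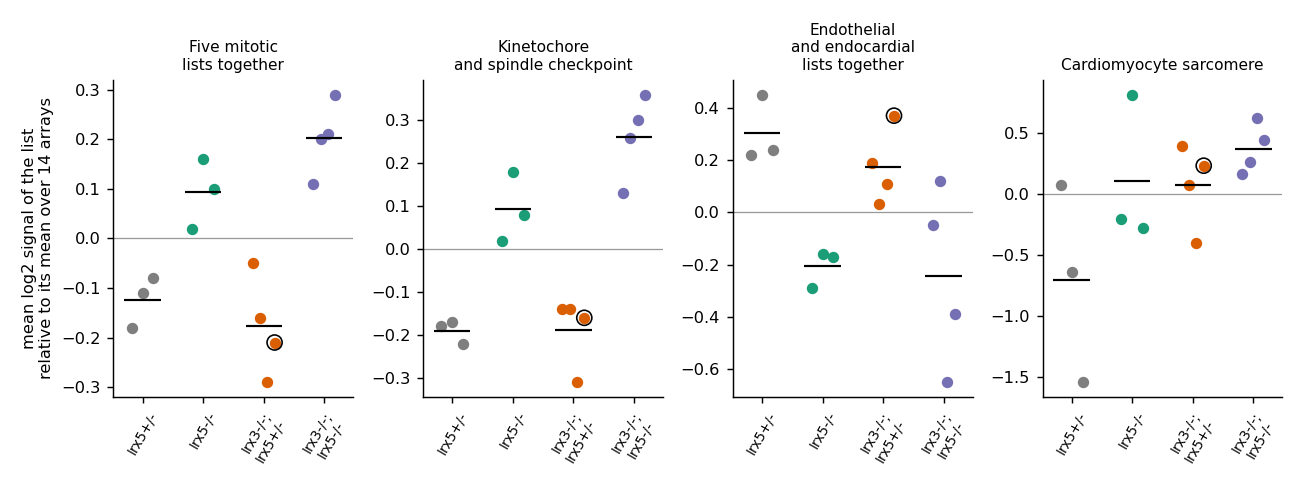
Mean log2 signal of 4 gene sets on each of the 14 arrays (points), relative to the set's mean over all arrays, with group means as lines and the array of conflicting description circled. On the kinetochore list all Irx5+/- arrays, with or without Irx3, lie below 0 and all Irx5-/- arrays above it, while endothelial and sarcomere values of the groups without Irx3 overlap.

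Genes of DNA replication, the phase before mitosis, were higher by smaller amounts. Licensing and origin factors had a median of 0.21, with 23 of 25 above 0 and 6 higher members at an unadjusted p under 0.05. Besides Mcm8 the members with the smallest p were Gins2, a subunit of the replicative helicase, at 0.28 ± 0.09, and its partners Mcm10 and Cdc45 at 0.32 ± 0.12 and 0.37 ± 0.14. Fork and nucleotide genes had a median of 0.18 with 25 of 27 above 0. Rrm1, the large subunit of ribonucleotide reductase, read 10.64, 10.51, 10.12 and 10.43 against 10.78, 11.16, 10.85 and 11.04 (0.53 ± 0.11). Uhrf1, which maintains DNA methylation behind the fork, read 10.28, 10.29, 10.29 and 10.27 against 11.01, 10.90, 10.60 and 10.52 (0.47 ± 0.11). Its Irx3-/-;Irx5+/- arrays were nearly equal and its double mutants spread above them. Leaving out arrays moved these lists: the licensing list had 2 to 8 higher members at an unadjusted p under 0.05 and the fork list 4 to 10. Over all 19931 genes that number ran from 615 to 876.

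Histone genes had a median of 0.38 with all 16 measured members above 0 and 6 at an unadjusted p under 0.05. That count was 3 without Irx3-/-;Irx5+/- replicate 3, 3 without double mutant replicate 1 and 9 without Irx3-/-;Irx5+/- replicate 2. The numbers of higher genes at that p over all 19931 were 615, 844 and 641 in the same order, beside 809 with all arrays. H2ax, the variant that is phosphorylated at DNA breaks, read 9.65, 9.28, 9.71 and 9.43 against 10.04, 10.08, 10.06 and 10.21 (0.58 ± 0.11). H2az1, a variant at promoters, lay at 0.23 ± 0.08, and the linker histones H1f3 and H1f5 at 0.45 ± 0.16 and 0.46 ± 0.19 with overlapping groups. Sequences of replication histones are so alike that copies can share signal.

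Genes that start the cycle stood nearer to the background. The list of G1 cyclins and E2F factors had a median of 0.08, with 2 of 21 at an unadjusted p under 0.05. These were Tfdp1, the partner of E2F factors, which read 10.61, 10.43, 10.45 and 10.45 against 10.77, 10.86, 10.88 and 10.85 (0.35 ± 0.08), and Ccnd1, cyclin D1, at 0.45 ± 0.12. For both genes every double mutant array was the higher. Inhibitors of the cycle and p53 targets had a median of -0.02. Cdkn1c, the cyclin-dependent kinase inhibitor p57, lay at -0.19 ± 0.14, and Plk2, a stress-induced polo kinase, at -0.26 ± 0.12.

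Endothelial genes were lower in double mutants by their median, but the samples overlapped. The endothelial list had a median of -0.50, with 28 of 30 members below 0 and 15 lower ones at an unadjusted p under 0.05. Only 2 members had groups that did not overlap, which is few beside the 15. The endocardial list, of genes that mark the inner lining, had a median of -0.33 with 16 of 18 below 0, 6 lower members at an unadjusted p under 0.05 and 3 without overlap. Without replicate 3 of the double mutants the endocardial median was -0.20. Together these lists held 21 such lower members of 48 (43.8%), beside 3.61% of all genes, and 5 without overlap (10.4%), beside 2.18%.

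Ecscr, an endothelial cell surface regulator, had the smallest p of its list. It read 10.61, 10.51, 10.50 and 10.61 in Irx3-/-;Irx5+/- hearts and 9.85, 10.25, 8.94 and 9.39 in double mutants (-0.95 ± 0.21). The double mutants lay below, over a range many times wider. Pecam1, the junctional adhesion molecule of all endothelium, read 10.88, 10.67, 10.51 and 10.98 against 10.08, 10.69, 9.28 and 9.68 (-0.83 ± 0.23). Replicate 2 of the double mutants reached into the other group, and replicates 3 and 4 were low. Egfl7, a secreted endothelial factor, lay at -0.69 ± 0.21, and Eng, the TGF-beta co-receptor endoglin, at -0.76 ± 0.24, both with the same order of arrays. The 2 members above 0, named after their values were seen, were Sox17 at 0.05 and Sox18 at 0.04, transcription factors of vessel identity.

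In the endocardial list, Npr3, a natriuretic peptide clearance receptor of the endocardium, read 12.03, 11.93, 12.17 and 12.37 against 11.60, 11.75, 10.33 and 10.81 (-1.0 ± 0.25). Cytl1, a secreted cytokine-like protein, read 9.5, 7.92, 9.88 and 8.79 against 7.39, 7.66, 7.59 and 7.58 (-1.47 ± 0.34). Here it was the Irx3-/-;Irx5+/- hearts that varied, while the double mutants were uniformly low. Klf2, a factor induced by blood flow, read 9.41, 9.40, 9.29 and 9.53 against 9.14, 9.02, 8.68 and 9.23 (-0.39 ± 0.13), without overlap. Nrg1, the neuregulin signal from endocardium to trabeculae, lay at -0.39 ± 0.15. Hapln1, a link protein of the cushion matrix, was the member that went the other way at an unadjusted p under 0.05, at 0.80, and was named after its value was seen.

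Replicates 3 and 4 of the double mutants had the lowest endothelial signals. On the mean of the endothelial list the double mutants stood at -0.07, 0.17, -0.68 and -0.46, and the Irx3-/-;Irx5+/- hearts at 0.26, 0.05, 0.06 and 0.43. Replicate 3 was the lowest of the 8 arrays for 31 of the 48 endothelial and endocardial genes, and the same array was the highest for 23 of 31 sarcomere genes. Without it the median over both lists was -0.29, and without replicate 2 of the double mutants it was -0.49. The number of lower members at an unadjusted p under 0.05 was 21 with all arrays, 13 without replicate 3 and 13 without replicate 4. The same numbers over all 19931 genes were 719, 979 and 484. Without the array of conflicting description, whose endothelial mean of 0.43 was the highest of the 8, the lists held 14 such members (against 2.77% of all genes). For 5 members the groups then did not overlap (against 3.24%). Smaller lists around the vessels were mixed. Coronary and arterial genes had a median of -0.09, with the VEGF co-receptor Nrp1 at -0.42 ± 0.12 and the chemokine receptor Cxcr4 at 0.54 ± 0.21.

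Caveolae are membrane pockets rich in endothelium, built by caveolins and cavins. Cav1 read 10.04, 10.20, 10.28 and 10.63 against 9.92, 9.31, 9.53 and 9.06 (-0.83 ± 0.17), with no overlap although replicate 1 of the double mutants lay close to the other group. Its partner Cav2 lay at -0.49 ± 0.18 and Cavin2, which shapes the pocket, at -0.41 ± 0.16, both with overlap. The other 6 members of the list had an unadjusted p above 0.05, and the list's median was -0.10. Guidance genes of the semaphorin system had a median of -0.11 with 4 of 18 lower at an unadjusted p under 0.05. Sema4d, a ligand of plexin B receptors, read 9.08, 9.14, 9.04 and 9.38 against 8.61, 8.83, 8.69 and 8.37 (-0.53 ± 0.13) without overlap. Sema3a, a secreted repellent of axons and vessels, lay at -0.72 ± 0.26, and Plxnd1, an endothelial semaphorin receptor, at -0.59 ± 0.25, both with overlap.

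Cushion and valve mesenchyme had a median of 0.24 with 19 of 24 above 0 and 6 higher members at an unadjusted p under 0.05. The median was 0.16 without Irx3-/-;Irx5+/- replicate 1, and 3 higher members reached that p without double mutant replicate 4. Without that array 617 of all 19931 genes were higher at that p, beside 809 with all arrays. Msx2, a BMP-induced homeobox factor of the cushions, read 7.43, 7.55, 7.65 and 7.52 against 8.06, 8.29, 7.93 and 8.21 (0.59 ± 0.11), with a clear gap. Tbx20, a T-box factor of valves and chamber muscle, read 10.31, 10.50, 10.14 and 10.69 against 10.86, 10.77, 11.14 and 11.38 (0.63 ± 0.16). Bmp2, the myocardial ligand that starts cushion formation, read 7.73, 7.78, 7.04 and 8.33 against 8.21, 9.58, 8.98 and 8.35. It overlapped, with large spread on both sides (1.06 ± 0.32). Vcan, the versican of cardiac jelly, lay at 0.57 ± 0.21. The wider BMP and TGF-beta list had 14 of 29 above 0, with 3 higher and 3 lower members at an unadjusted p under 0.05. Its receptors Tgfbr3 and Tgfbr2 lay at -0.90 ± 0.24 and -0.59 ± 0.18.

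In the matrix around Hmcn1, the basement membrane list had a median of -0.03, with 18 of 26 below 0, 4 lower members and 1 higher at an unadjusted p under 0.05, Hmcn1 included. Nid1 and Nid2, the nidogens that link laminin to collagen IV, lay on opposite sides, at -0.52 ± 0.21 and 0.39 ± 0.12. Lama2, a laminin chain of muscle, lay at -0.45 ± 0.20. The interstitial matrix list had a median of -0.13 with 18 of 23 below 0, but without Irx3-/-;Irx5+/- replicate 3 the median was 0.0070 with 12 above 0, so this direction rested on 1 array. Thbs2, an antiangiogenic thrombospondin, read 9.19, 9.51, 10.12 and 9.0 against 8.21, 8.12, 8.87 and 8.66 (-0.99 ± 0.30), and its groups lay apart. Eln, elastin of the great vessels, read 10.92, 11.57, 11.73 and 10.90 against 9.20, 10.01, 11.01 and 10.86. It overlapped, with replicates 1 and 2 of the double mutants low (-1.01 ± 0.39).

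**Figure D4:**
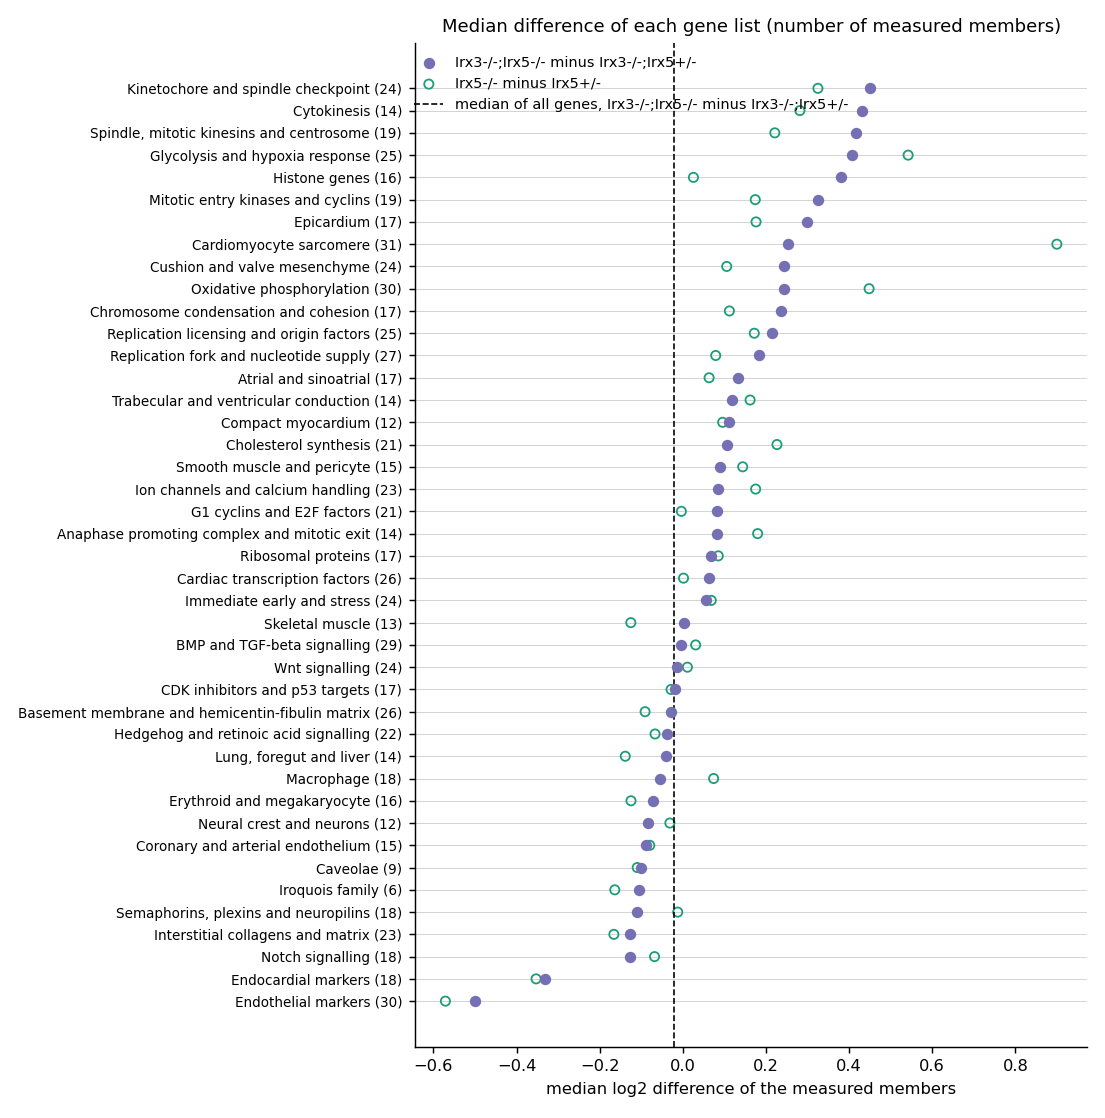
Median log2 difference of each of the 42 gene lists on loss of the last Irx5 copy without Irx3 (filled) and with Irx3 present (open), with the number of measured members in parentheses. The kinetochore list is highest at 0.45 and the endothelial list lowest at -0.50 without Irx3; the dashed line is the median of all genes, -0.02.

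Genes of the muscle itself showed little that stood out from the spread of the arrays. The sarcomere list had a median of 0.25 with 30 of 31 above 0, but 1 member at an unadjusted p under 0.05. That was Acta1, skeletal actin, at 0.56 ± 0.25. Myl7, the atrial light chain, read 12.45, 12.07, 11.38 and 12.07 against 12.48, 12.79, 12.46 and 12.62 (0.60 ± 0.31). Replicate 3 of the Irx3-/-;Irx5+/- hearts was the lowest of the 8 arrays for 29 of the 31 sarcomere genes, and without it the list's median was 0.10. Respiratory chain genes had a median of 0.24 and glycolytic and hypoxia genes 0.41, with 1 of 30 and 2 of 25 at an unadjusted p under 0.05. Without the same array these medians were 0.15 and 0.26. Pgam1, a glycolytic mutase, lay at 0.52 ± 0.17.

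Conduction and patterning genes, where Irx3 and Irx5 are best known, had small medians. The trabecular and conduction list stood at 0.12, the atrial and sinoatrial list at 0.13, cardiac transcription factors at 0.06 and ion channels at 0.08. The trabecular median was 0.011 without Irx3-/-;Irx5+/- replicate 3, and that of ion channels -0.021 without double mutant replicate 3. Tbx3, the repressor that keeps pacemaker and conduction tissue distinct, read 8.18, 8.01, 8.24 and 8.32 against 8.76, 8.62, 8.94 and 8.36 (0.48 ± 0.13). Its groups did not overlap, by a narrow margin. Kcnj2, the inward rectifier channel of ventricular muscle, read 7.11, 6.93, 6.34 and 7.24 against 7.28, 7.74, 7.27 and 7.49 (0.54 ± 0.22). Cacna1g, a T-type calcium channel of nodal tissue, lay at -0.67 ± 0.26 with overlap. Igf2bp1, an RNA-binding protein of compact and fetal growth, lay at 0.63 ± 0.16 and Fgfr1, a fibroblast growth factor receptor, at -0.40 ± 0.18.

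Among the signalling lists, Notch had 16 of 18 members below 0 with a median of -0.13, and the endothelial receptor Notch4 at -0.24 ± 0.10 was its member at an unadjusted p under 0.05. Wnt, and hedgehog with retinoic acid, had medians of -0.01 and -0.04. Rspo3, a Wnt amplifier of the heart, read 8.26, 8.68, 8.91 and 9.05 against 9.18, 9.30, 9.19 and 9.23 (0.50 ± 0.17). Its double mutants were uniform just above the other group. Fdft1, squalene synthase of the cholesterol pathway, lay at 0.48 ± 0.12 in a list with a median of 0.11.

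Immediate early genes, which respond within minutes to stress and handling, had a median of 0.05 as a list, which was -0.043 without double mutant replicate 3, and 2 members stood well below. Fosb read 10.28, 11.11, 11.42 and 10.55 against 9.69, 9.90, 9.12 and 9.99 (-1.16 ± 0.35). Egr1 read 10.14, 10.34, 10.63 and 10.04 against 9.40, 8.51, 9.88 and 9.66 (-0.93 ± 0.31). Neither overlapped, and with Irx3 present the differences were -0.03 and 0.24.

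Markers of other cells in the sample were set beside these results. Epicardial genes had a median of 0.30, with Tbx18, an epicardial T-box factor, at 7.73, 8.51, 8.27 and 7.63 against 9.67, 8.80, 8.65 and 8.88 (0.97 ± 0.32). Tcf21, another epicardial factor, spread from 8.79 to 10.91 in double mutants, replicate 1 the highest, and the list's median ran from 0.10 to 0.45 as arrays were left out. Smooth muscle, erythroid, macrophage, neural, lung and liver, and skeletal muscle lists had medians between -0.08 and 0.09, and ribosomal proteins 0.07. The part of the epicardial or other cells in the mitotic result was not tested.

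The same loss of Irx5 was measured where Irx3 was present, in Irx5-/- against Irx5+/- hearts, which share no arrays with the comparison above. No gene passed there (0 of 19931 in limma, 0.0%), and 2122 had an unadjusted p under 0.05 (10.6%). The mitotic lists had a median of 0.25 there, with 78 of 93 above 0. The endothelial and endocardial lists had a median of -0.47, with 3 of 48 above 0. Of all genes, 44.4% lay above 0. An unadjusted p under 0.05 in either direction was reached by 17 of the 93 (18.3%) and 23 of the 48 (47.9%), beside 10.6% of all genes. The endothelial and endocardial means did not overlap there, at 0.22, 0.45 and 0.24 on Irx5+/- arrays and -0.29, -0.16 and -0.17 on Irx5-/- arrays. The mitotic means did not overlap either, at -0.18, -0.11 and -0.08 against 0.02, 0.16 and 0.10. Muscle genes had larger medians there. The sarcomere list had a median of 0.90 with all 31 members above 0 and 13 at an unadjusted p under 0.05. Respiratory chain genes had 0.45 with all 30 above 0. The sarcomere means of the Irx5+/- arrays were 0.07, -0.64 and -1.54 and those of the Irx5-/- arrays -0.21, 0.81 and -0.28, which overlapped. Respiratory chain means overlapped as well, at 0.01, -0.44 and -0.70 against -0.22, 0.65 and -0.16. The part of this muscle signal in the other differences was not tested. The difference was larger without Irx3 for 70 of the 93 mitotic genes, beside 50.3% of all genes, while the median of the same contrast over the sarcomere list was -0.55. Tacc3 lay at -0.08 with Irx3 and 0.55 without, Ndc80 at 0.06 and 0.52, Cenpe at 0.01 and 0.50, Tpx2 at 0.05 and 0.51, and Mki67 at -0.04 and 0.43. These genes, and Bub1 and Mastl, were named for their small p without Irx3, among all genes or within their list. That choice in part fixes that a difference is the larger there. Bub1 lay at 0.49 and 0.45, and Mastl at 0.64 and 0.58. Histone genes had a median of 0.03 with Irx3 and 0.38 without.

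Whether the loss of Irx5 acted differently without and with Irx3 was tested directly as an interaction. No gene passed (0 of 19931 in limma, 0.0%), and 806 genes had an unadjusted p under 0.05 (4.04%). In the mitotic lists 16 of 93 reached that (17.2%), all of them with the larger difference without Irx3. The endothelial and endocardial lists had 2 of 48 (4.17%). Among the 5 genes per direction named by smallest interaction p, Tacc3 and Fen1, the flap nuclease of replication, lay on the side of a larger difference without Irx3. Fen1 read 7.77, 7.85, 8.08 and 7.61 against 8.13, 8.54, 8.05 and 8.72 (0.53 ± 0.14), and lay at -0.36 with Irx3. Bach1, a repressor of haem genes, lay at 0.40 without and -0.26 with Irx3, whereas Scn3a, a neuronal sodium channel, and Tnfrsf18, a TNF receptor, differed mainly with Irx3, at -0.46 and -0.56. On the opposite side, Gabra4, a GABA receptor subunit, lay at -0.62 without and 0.76 with Irx3. Atraid, Lrig2, Bbs2 and Dapp1 lay between -0.38 and -0.01 without Irx3 and between 0.48 and 0.62 with it. None of these differences was past the threshold, so the 2 settings were not shown to differ for any gene.

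**Figure D5:**
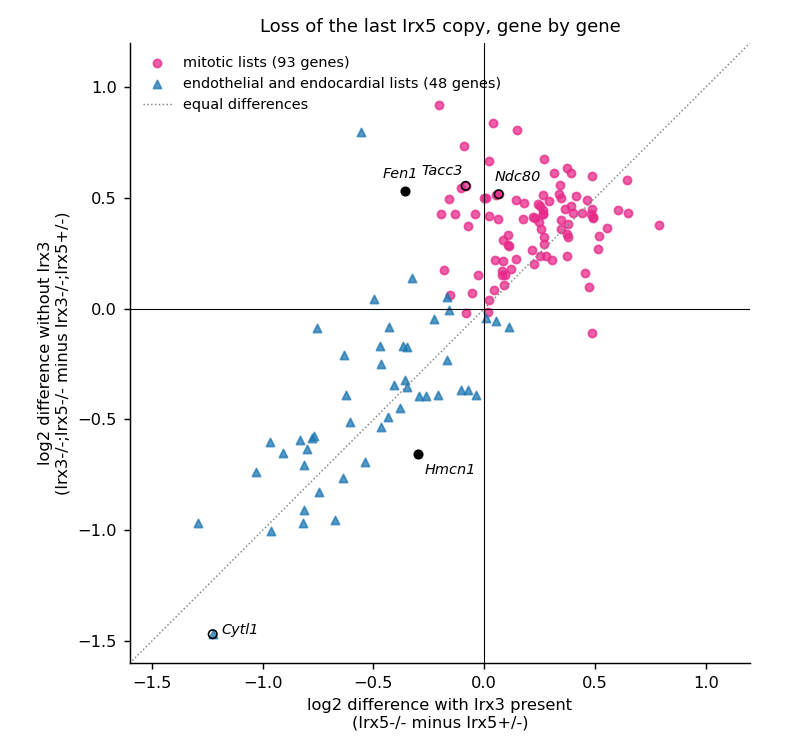
Each point is a gene of the mitotic lists (93 genes) or of the endothelial and endocardial lists (48 genes), by its log2 difference with Irx3 present (horizontal, Irx5-/- minus Irx5+/-) and without Irx3 (vertical, double mutant minus Irx3-/-;Irx5+/-). The dotted line marks equal differences; 70 of the 93 mitotic genes lie above it, and Hmcn1 and Fen1 are added as named points.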

How the data were processed

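Total RNA of mouse hearts was amplified and hybridised as labelled cDNA, 1 array per sample, per the labels' protocols. The deposited values are log2 signals per probe set, which the authors made with RMA over all arrays together using affy in R, per the file headers. No versions and no genome build of the array annotation are stated. Values were used as deposited. The platform table pairs 21776 of 28763 probe sets with 1 gene symbol, 1592 with several and 5395 with none, and 21685 of the 21776 matched the reference gene table by gene ID. The probe set with the highest mean was kept for the 998 genes with several, which left 19931 genes. Arrays have no read depth, and their number limits the precision.

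The main test was limma 3.58.1 in R 4.3.3, with 4 group means over 14 arrays (10 residual degrees of freedom), 2-sided, with Benjamini-Hochberg adjustment over all genes at 0.05. Errors are standard errors of that fit. The procedure was tested on simulated data. Gene lists (42, with 820 of 871 entries measured) are described by counts and medians without a test. The members and lists were chosen with earlier results of these data known. Named genes were Irx1 to Irx6, called genes, the 15 per direction with the smallest p, up to 4 per list, and 5 per direction for the interaction. The 15 and the 5 leave out predicted and unnamed genes, olfactory and vomeronasal receptors, pseudogenes and small RNAs, which stayed in the tests. Additions are marked. Alternatives were all probe sets, only the 8 arrays, a variance trend, no low signals, centred medians, array weights, a replicate block, terms for sex and sarcomere signal, and each array left out. Counts of list members without each array were added after seeing the data. The main test did not pair arrays by replicate number.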

Additional observations from a re-analysis of the deposited data

Results flagged for a closer look

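Of 452 sets of 4 arrays checked for a sample far from the other 3, 25 held one. Chance alone marks about 1 in 20, which is close to this share, and the values are given without an explanation.

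In Irx3-/-;Irx5+/- hearts, replicate 1 was far below the others for Pcdhb20 (7.69), Ptpre (7.53) and Mfap5 (9.07), and far above them for Tfdp1 (10.61). Replicate 2 was high for Krt18 (8.83), Tubb3 (8.15) and Prph (7.89). Replicate 3 was low for Gata4 (10.43) and Pgam1 (10.23) and high for Notch2 (10.34). Replicate 4, the array of conflicting description, was low for Chaf1b (8.34).

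For list means in the same group, replicate 3 was low for kinetochore genes (-0.31) and for ion channels (-0.21) and high for the basement membrane list (0.12). Replicate 1 was high for cytokinesis (-0.04) and for cholesterol synthesis (0.16).

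In double mutants, replicate 4 was high for Mki67 (10.73) and H2az1 (13.26) and low for Dnajb1 (9.26) and Mymk (8.16). Replicate 2 was high for the endothelial genes Nrg1 (8.91) and Cav2 (8.28) and low for Lrig2 (7.96). Replicate 3 was low for Slc2a3 (8.56), and replicate 1 for Tagln (9.67).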

How the results depend on the processing

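The call of Hmcn1 depended on the setting. It passed with all probe sets, a variance trend, array weights and without low signals. With all probe sets, the 5 that passed shared an adjusted p of 0.0187 in limma. All 5 were of Hmcn1, so that adjustment ranked probe sets that are not independent. However, 0 genes passed with only the 8 arrays (Hmcn1 adjusted p 0.326 in limma), centred medians (0.106), a sex term (0.102) or a sarcomere term (0.0696). The same held with any of the 8 arrays left out (0 genes in each, Hmcn1 between 0.0690 and 0.353). With the replicate block 0 genes passed, and Hmcn1 kept its difference of -0.65 with an adjusted p of 0.221. Same-numbered arrays correlated between -0.18 and -0.03 in their deviations, and other-numbered arrays between -0.06 and 0.17. These few pairs showed no likeness by number but cannot exclude a pairing. Over the 17 alternatives Hmcn1 lay between -0.69 and -0.60, although some of them, such as the variance trend, cannot change a difference. Under the alternatives that lost its call it was -0.65 (8 arrays, sex term), -0.63 (centred medians) and -0.63 (sarcomere term).

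The interaction had 0 genes past the threshold in every setting run. It could not be fitted from the 8 arrays alone. The median of cytokinesis ran from 0.40 to 0.55 and that of condensation from 0.20 to 0.31 with an array left out, both highest without Irx3-/-;Irx5+/- replicate 1.

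With an array left out, the median turned sign for 12 of the 42 lists, whose medians lay between -0.13 and 0.11. These were interstitial matrix, ion channels, compact myocardium, immediate early genes, cycle inhibitors, BMP and TGF-beta, Wnt, hedgehog and retinoic acid, smooth muscle, macrophage, lung and liver, and skeletal muscle. It moved by over 1.5 times with its sign kept for 20 lists. It did neither for 10, which were the 5 mitotic, both replication, histone, endothelial and ribosomal lists. With the sarcomere term the sarcomere median was -0.041 and the compact median -0.0088. Single genes near 0 also turned. Irx2 was -0.056 with array weights and -0.029 with the sarcomere term, and ran from -0.094 to 0.067 without 1 array. Bbs2 was 0.018 with centred medians and 0.000196 with the sarcomere term, and ran from -0.062 to 0.035 without 1 array. Epcam ran from -0.016 to 0.24 without 1 array, and the atrial median was -0.0066 with the sarcomere term. The cause was not tested. Of 3085 log2 differences of named genes under alternatives, 3058 kept their sign and side of the threshold. Only Hmcn1 was past the threshold in the main fit, and some alternatives, such as the variance trend, cannot change a difference. That count is therefore no measure of stability. Signal over background, 4 arrays a group and the unstated origin of the samples limit all results.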
